A study of Mus musculus with 8 samples.

Results

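The miR-17-92 and miR-106b-25 clusters are a pair of related groups of microRNAs (miRNAs), each cut from a single primary transcript. Their 9 main mature arms were taken by name from the miRNA column of every table: mmu-miR-17-5p, mmu-miR-18a-5p, mmu-miR-19a-3p, mmu-miR-20a-5p, mmu-miR-19b-3p and mmu-miR-92a-3p for miR-17-92, and mmu-miR-106b-5p, mmu-miR-93-5p and mmu-miR-25-3p for miR-106b-25, given from here on without the species prefix. All 9 were listed in all 8 libraries, among 1978 mature miRNAs named in the tables. Small RNA was sequenced from C2C12 cells, a mouse skeletal myoblast line, and from P19 cells, a mouse embryonal carcinoma line. C2C12 cells with the negative control hairpin (shNC) or with a hairpin against Perk (shPerk) were profiled at day 0, before differentiation was induced, and at day 3 in differentiation medium. A further pair of C2C12 libraries came from cells with the empty vector (vector) or with ATF4 overexpression (ATF4), and a pair of P19 libraries came from shNC and shPerk cells. Each of these 8 conditions was 1 library, so no difference between conditions had a replicate check and no test between conditions was made.

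The hairpin and ATF4 lines were stable lentiviral lines per the study's methods, and ATF4 was driven by an EF1α promoter in a modified TRE3G vector. ATF4 and vector cells were kept in growth medium and not grown to full confluence. The labels give neither the day nor the induction state of the P19 cells. Perk and Atf4 mRNA are not measured by small RNA libraries, so neither the knockdown nor the overexpression was checked here. A lower level in a bulk sample cannot tell fewer cells that make a miRNA from less of it in each cell.

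miRNAs of these clusters are best known as products of proliferating cells: the Mir17hg transcript that carries miR-17-92 is a direct target of MYC and E2F factors, and miR-106b-25 lies inside Mcm7, a gene for a subunit of the replicative helicase. A miRNA recognises its targets mainly through its seed, bases 2 to 8 from the 5′ end, and members with a shared seed share many targets. Well studied targets include the cell cycle inhibitor Cdkn1a for the miR-17 seed and the pro-apoptotic Bcl2l11 for the miR-25/92 seed. PERK is an endoplasmic reticulum stress kinase that phosphorylates eIF2α, which raises translation of the transcription factor ATF4, and miR-106b-25 has been reported as repressed by PERK signalling in other systems.

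The mature sequences are shown because the seed families crossed the cluster boundary and did not move alike. They are written 5′ to 3′ as RefSeq gives them on GRCm38.p6, with the seed in capitals. The first 4 share the seed AAAGUGC, miR-18a-5p differs from them inside the seed, and the next pairs share GUGCAAA and AUUGCAC.
miR-17-5p: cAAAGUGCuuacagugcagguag
miR-20a-5p: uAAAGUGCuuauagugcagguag
miR-106b-5p: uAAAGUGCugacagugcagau
miR-93-5p: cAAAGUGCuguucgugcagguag
miR-18a-5p: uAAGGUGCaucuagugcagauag
miR-19a-3p: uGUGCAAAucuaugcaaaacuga
miR-19b-3p: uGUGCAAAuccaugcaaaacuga
miR-92a-3p: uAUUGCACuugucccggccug
miR-25-3p: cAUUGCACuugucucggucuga

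The 6 hairpins of miR-17-92 lie on the plus strand at chr14:115043671-115044506 (GRCm38), a span of 836 bp, and GENCODE vM21 places all of them in an exon of the lincRNA gene Mir17hg. The 3 hairpins of miR-106b-25 lie on the minus strand at chr5:138165321-138165818, a span of 498 bp inside Mcm7. There Mir106b overlapped no annotated exon, and Mir93 and Mir25 overlapped an exon of a retained-intron transcript only. miR-19b-3p and miR-92a-3p can also come from the paralogous cluster, miR-106a-363, at chrX:52741693-52742567 on the minus strand. The mature 3p sequences from both places are the same, so reads of these 2 members cannot be assigned to a single locus, whereas the 5p arms of their hairpins differ.
miR-19b-1-5p, from the miR-17-92 locus: aGUUUUGCagguuugcauccagc
miR-19b-2-5p, from the X chromosome: aGUUUUGCagauuugcaguucagc
miR-92a-1-5p, from the miR-17-92 locus: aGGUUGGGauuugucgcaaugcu
miR-92a-2-5p, from the X chromosome: aGGUGGGGauugguggcauuac

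The 4 C2C12 hairpin libraries were deposited as read counts, with 8800977 to 11993448 reads on miRNAs, and are given as CPM, counts per 1000000 miRNA reads of the library. The vector, ATF4 and P19 libraries were deposited as RPM, likewise reads per 1000000 miRNA reads, without counts, so their values carry no counting interval. Intervals of the count libraries are 95% Clopper-Pearson intervals unless stated otherwise, and cover counting error only. The cell type labels were checked against marker miRNAs. All 4 muscle markers (miR-1a-3p, miR-133a-3p, miR-133b-3p and miR-206-3p) were present in every C2C12 library, with a summed level between 2467 RPM and 88479.9 CPM, and summed to 34.5 and 96.9 RPM in P19. All 8 miR-290 and miR-302 arms used as embryonal carcinoma markers were present in P19, and none reached 1 CPM or RPM in C2C12. In C2C12 shPerk cells miR-142a-3p, a miRNA of blood cells, rose from 28 to 1977 reads at day 0 and from 60 to 665 reads at day 3, while miR-223-3p, another blood cell miRNA, had 0 or 1 reads. miR-451a of red blood cells had 71 and 80 reads at day 0, not called (log2 fold change 0.67, interval 0.19 to 1.15), and was called higher at day 3, from 32 to 73 reads (1.86, interval 1.25 to 2.52). The summed level of these 3 blood markers was 8.74 CPM in shNC and 234 CPM in shPerk cells at day 0, and 7.67 and 78.4 CPM at day 3. The brain-enriched miR-9-5p also rose, from 1956 to 23241 reads and from 6604 to 38128 reads, with miR-124-3p at 0 in all 4 libraries. The part of these miRNAs in the results on the clusters was not tested.

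miR-92a-3p was the most abundant member in all C2C12 and P19 libraries but 1, and the 9 members together took 0.403% to 3.77% of miRNA reads in the 6 C2C12 libraries and 7.84% and 3.96% in P19 shNC and shPerk cells. The miR-17-92 cluster alone was at 2.53% in P19 shPerk cells, below the 3.09% of the C2C12 vector library. miR-92a-3p was at 6063, 5280.1, 2714 and 1128 CPM in shNC day 0, shPerk day 0, shNC day 3 and shPerk day 3, at 22082 and 10087 RPM in vector and ATF4, and at 41884 and 15926 RPM in P19 shNC and shPerk. miR-25-3p, which shares its seed, was at 2848, 2528, 1822 and 1387 CPM in the same order, then at 3939 and 3309 RPM and at 11803 and 8303 RPM. At day 3 of shPerk cells it was above miR-92a-3p, the only library of the 8 in which another member led. The span of miR-92a-3p over the 6 C2C12 libraries was thus much wider than that of miR-25-3p.

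The miR-17 seed family came next. miR-17-5p was at 2351, 1104, 1346 and 314 CPM in the 4 hairpin libraries, at 4670.4 and 2812 RPM in vector and ATF4, and at 5909.6 and 2914 RPM in P19. miR-20a-5p was at 2672, 1286, 1756 and 363 CPM, at 3727 and 2407 RPM, and at 6832 and 4497 RPM. These 2 tracked each other closely: miR-20a-5p was the higher of the pair in 6 of 8 libraries and miR-17-5p in vector and ATF4. miR-93-5p of the miR-106b-25 cluster was at 1403, 1086, 1248 and 414 CPM, at 2642 and 2284 RPM, and at 7156 and 5301 RPM. miR-106b-5p, from the same transcript, was at 249, 182, 156 and 82.8 CPM, at 270.2 and 263 RPM, and at 1398 and 760.4 RPM, which put it below miR-93-5p in every library.

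The remaining members were less abundant. miR-19b-3p was at 714, 341, 523 and 271 CPM, at 203 and 198 RPM, and at 3093 and 1727 RPM. Its seed partner miR-19a-3p was at 242, 88.1, 128 and 56.9 CPM, at 17.01 and 27.04 RPM, and at 66.7 and 66.2 RPM. miR-18a-5p was at 221, 75.8, 89.6 and 16.5 CPM, at 183 and 137 RPM, and at 293 and 144 RPM. The order of the last 2 changed with the table: miR-19a-3p was above miR-18a-5p in the 4 hairpin libraries of C2C12 and below it in vector, ATF4 and both P19 libraries. The lowest count of any member was 156 reads, for miR-18a-5p in shPerk cells at day 3, with an interval of 14.1 to 19.4 CPM. By rank in their own library the members lay between position 5 for miR-92a-3p in P19 shNC and position 323 for miR-19a-3p in the same library. The tables were scaled separately and ligation favours some sequences, so levels set across tables or between miRNAs are a description.

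**Figure D1:**
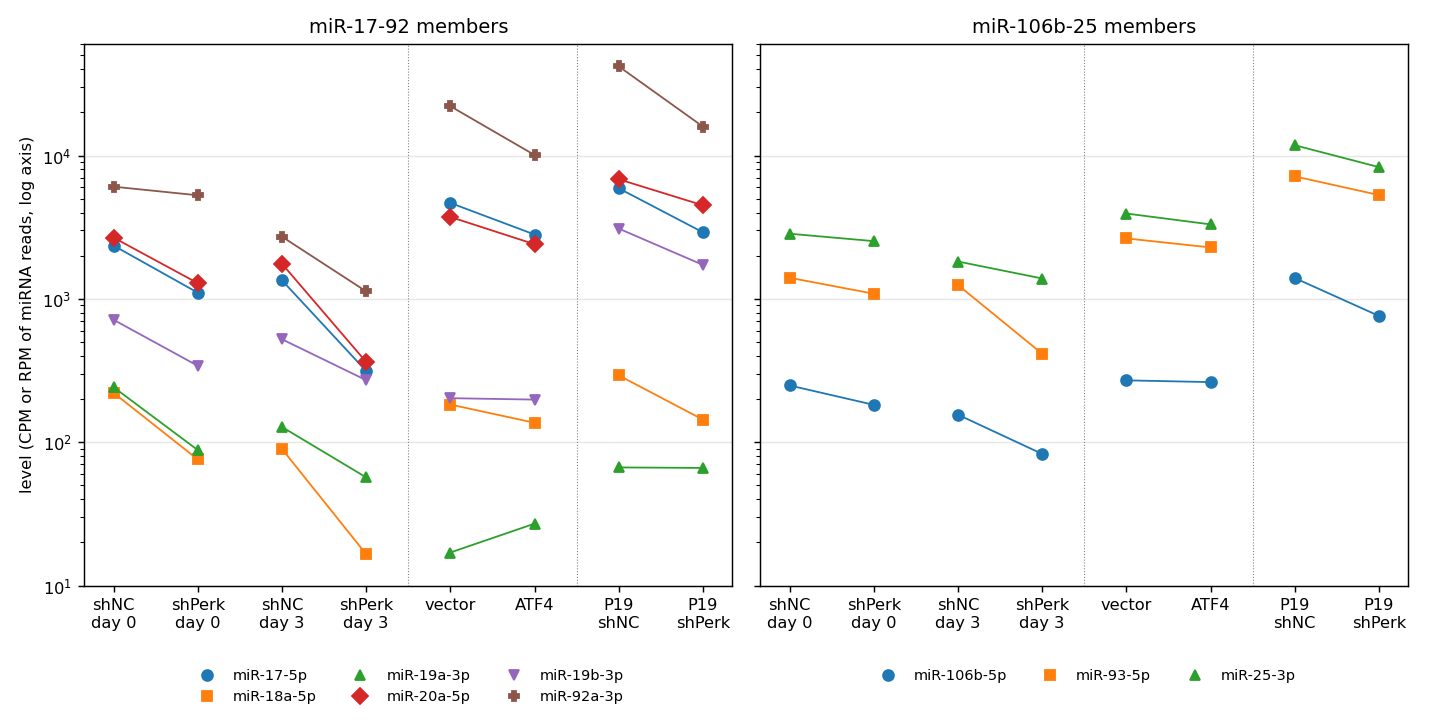
Level of each member in each of the 8 libraries (x axis), in CPM for the 4 C2C12 hairpin libraries and in RPM for vector, ATF4 and P19 (y axis, log scale), with miR-17-92 on the left and miR-106b-25 on the right. Each point is 1 library and lines join the libraries of a compared pair. miR-17-5p and miR-20a-5p drop to 314 and 363 CPM in shPerk cells at day 3, next to miR-19b-3p at 271 CPM, while miR-25-3p stays at 1387 CPM.

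The comparison of shPerk with shNC cells asked which miRNAs depend on PERK. Fold changes used TMM scaling over all miRNAs at 1 CPM or more in at least 1 of the libraries compared, and a miRNA was called past a 2-fold difference, a log2 fold change beyond 1 in size. At day 0 all 9 members were below 0, and 2 of 9, miR-18a-5p and miR-19a-3p, were called lower, where 20.3% of the 602 miRNAs were called lower and 52% were below 0. The median of the 9 was -0.92 and that of all miRNAs -0.06. The 6 members of miR-17-92 had a median of -0.95, and the 3 of miR-106b-25 a median of -0.24.

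At day 0 miR-17-5p had 26622 reads in shNC and 9714 in shPerk cells, -0.96 on the log2 scale (interval -0.99 to -0.92). miR-20a-5p had 30252 and 11321 reads (log2 fold change -0.92, interval -0.95 to -0.89), and miR-19b-3p had 8085 and 3002 reads (-0.93, interval -0.99 to -0.87). These 3 were just inside the limit and were called lower, giving 5 of 9, when libraries were scaled by total miRNA reads, where 23.8% of all miRNAs were called lower. miR-18a-5p went from 2498 to 667 reads (log2 fold change -1.41, interval -1.53 to -1.28), and miR-19a-3p from 2736 to 775 reads (-1.32, interval -1.44 to -1.21).

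miR-92a-3p, cut from the same transcript, had 68643 and 46470 reads at day 0 and differed by only -0.07 on the log2 scale (interval -0.08 to -0.05). The miR-106b-25 members were near it: miR-106b-5p had 2817 and 1604 reads (log2 fold change -0.32, interval -0.40 to -0.23), and miR-93-5p 15886 and 9558 reads (-0.24, interval -0.27 to -0.20). miR-25-3p had 32240 and 22251 reads (-0.04, interval -0.06 to -0.01) and is the member whose sign turned with DESeq2 size factors, where 8 of 9 were below 0. Within miR-17-92, the share of the cluster's reads held by miR-92a-3p was 49.4% in shNC and 64.6% in shPerk cells, a value that no scaling between libraries can move.

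At day 3 the differences were wider. All 9 members were again below 0, under every scaling and filter tried, and 4 of 9, miR-17-5p, miR-18a-5p, miR-20a-5p and miR-93-5p, were called lower, where 23% of the 575 miRNAs were called lower and 49.7% were below 0. The median was -0.93 for the 9 members and 0.01 for all miRNAs. None of the 9 was called higher at either day, against 15.6% of all miRNAs at day 0 and 21.9% at day 3.

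miR-18a-5p had the largest difference of the members at day 3, at -2.10 on the log2 scale (interval -2.36 to -1.86) from 1075 reads in shNC and 156 in shPerk cells. miR-20a-5p went from 21064 to 3421 reads (-1.94, interval -1.99 to -1.89) and miR-17-5p from 16144 to 2957 reads (-1.77, interval -1.83 to -1.71). The 3 members called in this cluster were thus the 3 that come from the 5p arm of their hairpin, and the other members of miR-17-92 are 3p arms. miR-92a-3p fell short of the limit with 32556 and 10633 reads (-0.93, interval -0.97 to -0.90). The miR-19 pair changed least in this cluster: miR-19a-3p had 1532 and 536 reads (-0.84, interval -0.98 to -0.69) and miR-19b-3p 6268 and 2554 reads (-0.62, interval -0.68 to -0.55). With total scaling miR-92a-3p and miR-19a-3p passed the limit too, giving 6 of 9 where 28.9% of all miRNAs were called lower. miR-92a-3p alone was added with the 10 CPM filter, upper-quartile factors or no filter. That gave 5 of 9, where 20.8%, 24.5% and 32.3% of all miRNAs were called lower, so the split by arm depended on the setting.

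The 3 members of miR-106b-25 spread apart at day 3. miR-93-5p had 14968 reads in shNC and 3902 in shPerk cells, -1.26 on the log2 scale (interval -1.31 to -1.21). miR-106b-5p had 1865 and 781 reads (-0.58, interval -0.70 to -0.45). miR-25-3p had 21850 and 13078 reads (-0.06, interval -0.09 to -0.03), close to the median of all miRNAs. None of the 3 was called higher in shPerk cells at either day. miR-25-3p took 56.5% of the reads of its cluster in shNC cells and 73.6% in shPerk cells, and miR-93-5p went from 38.7% to 22.0%.

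**Figure D2:**
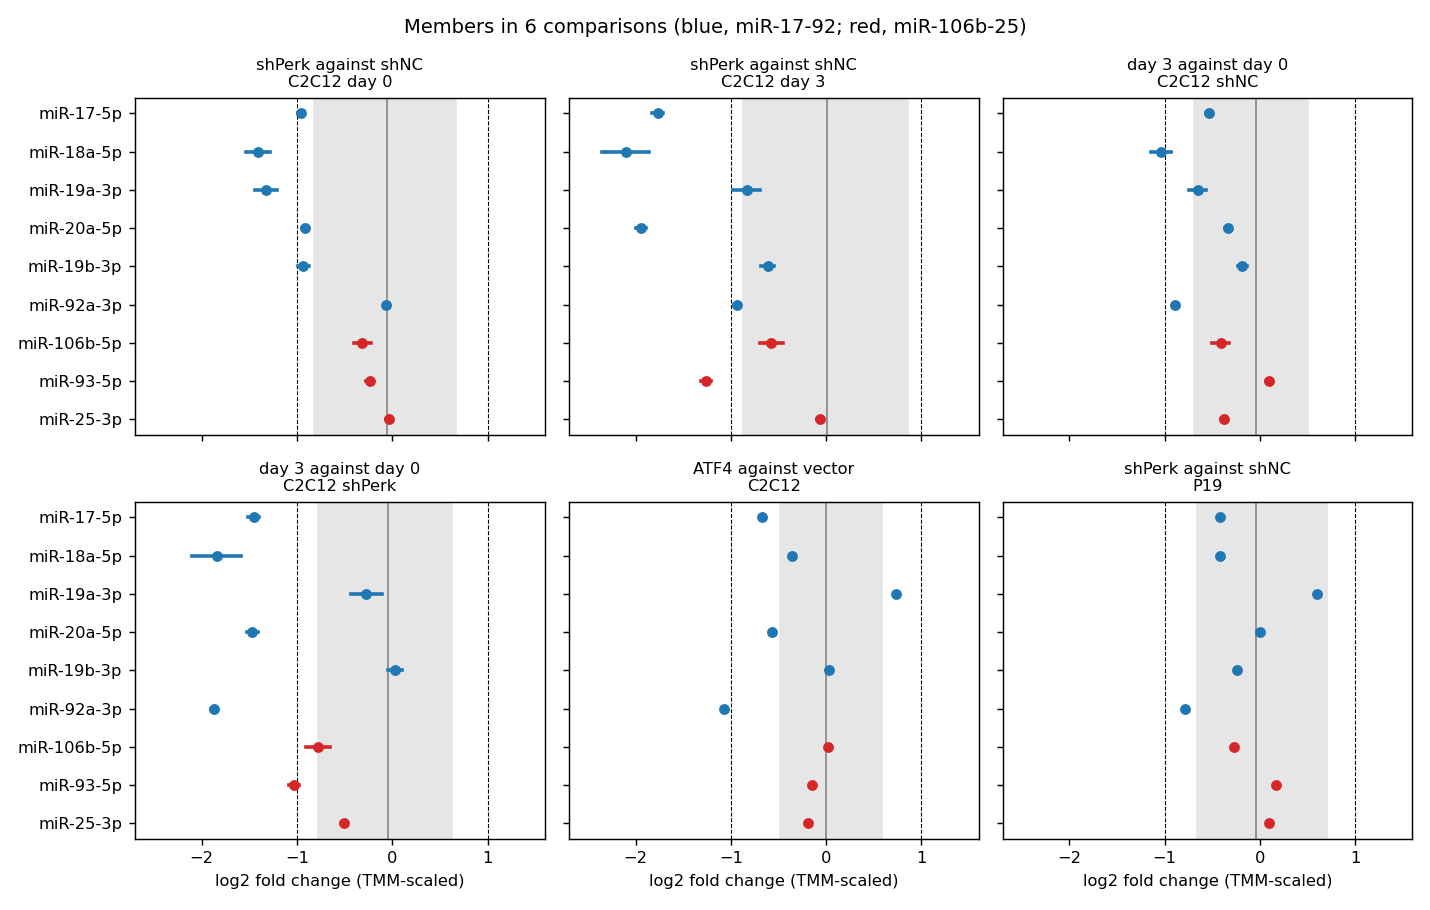
Log2 fold change (x axis, TMM scaling) of each member (y axis) in 6 comparisons, with miR-17-92 in blue and miR-106b-25 in red. Bars are 95% counting intervals where counts were deposited, the grey band and line are the middle range (lower to upper quartile) and median of all miRNAs, and dashed lines mark the 2-fold limit. At day 3, miR-17-5p, miR-18a-5p, miR-20a-5p and miR-93-5p lie left of the limit in shPerk cells, and in P19 no member passes it.

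The shift between the days was computed for each member as its shPerk log2 fold change at day 3 minus that at day 0. The shift was -1.02 for miR-93-5p (interval -1.09 to -0.96), -1.02 for miR-20a-5p (-1.08 to -0.96), -0.87 for miR-92a-3p (-0.90 to -0.83) and -0.81 for miR-17-5p (-0.88 to -0.75). miR-18a-5p shifted by -0.70 (-0.97 to -0.42) and miR-106b-5p by -0.26 (-0.41 to -0.11). The miR-19 pair moved the other way, by 0.49 for miR-19a-3p (0.31 to 0.67) and 0.32 for miR-19b-3p (0.23 to 0.41). For miR-25-3p the interval held 0, at -0.02 (-0.06 to 0.02). So the seed partners miR-92a-3p and miR-25-3p, from different clusters, shifted by unlike amounts. In the miR-17 seed family miR-20a-5p and miR-93-5p shifted alike within counting error, but miR-17-5p and miR-106b-5p shifted less.

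By summed reads, miR-17-92 held 1.23% of all miRNA reads in shNC and 0.818% in shPerk cells at day 0, and 0.656% and 0.215% at day 3. Its sum was 1.37-fold lower in shPerk cells at day 0 and 2.42-fold lower at day 3 (log2 fold changes -0.45 and -1.28). miR-106b-25 held 0.450% and 0.380% at day 0 and 0.323% and 0.188% at day 3, which made its sum 1.08-fold and 1.36-fold lower (log2 fold changes -0.11 and -0.44). By seed, the miR-17 family sum was 1.66-fold lower at day 0 and 3.05-fold lower at day 3, the miR-19 family 2.03-fold and 1.58-fold, and the miR-25/92 family 1.04-fold and 1.43-fold. The family led by miR-17-5p and miR-20a-5p was therefore the most reduced at day 3, and the miR-19 family at day 0, among families of more than 1 member.

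Differentiation itself was compared within each line, with the same 4 libraries. In shNC cells 8 of 9 members were below 0, beside 52.4% of all miRNAs, and 1 of 9, miR-18a-5p, was called lower at day 3 (log2 fold change -1.03, interval -1.14 to -0.93), where 16.5% of 593 miRNAs were called lower, and it was not called with DESeq2 factors or without a filter. miR-92a-3p was at -0.89, miR-19a-3p at -0.65, miR-17-5p at -0.54, miR-20a-5p at -0.34 and miR-19b-3p at -0.18. In miR-106b-25, miR-106b-5p was at -0.41 and miR-25-3p at -0.38, while miR-93-5p was at 0.10 and turned below 0 with total scaling. Most members were thus moderately lower in differentiated control myoblasts, without passing the limit.

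In shPerk cells 5 of 9 members were called lower at day 3, where 16.9% of 573 miRNAs were, and 8 of 9 were below 0, beside 52.4% of all miRNAs. Those called were miR-92a-3p at -1.87, miR-18a-5p at -1.84, miR-20a-5p at -1.47, miR-17-5p at -1.46 and miR-93-5p at -1.03. miR-93-5p was not called with DESeq2 factors (-0.99) or without a filter (-0.95). That left 4 of 9, where 16.1% and 24.1% of all miRNAs were called lower. Total scaling added miR-106b-5p, giving 6 of 9 where 28.1% of all miRNAs were called lower. miR-106b-5p was at -0.78, miR-25-3p at -0.51, miR-19a-3p at -0.27 and miR-19b-3p at 0.03, the last with an interval from -0.05 to 0.10 and below 0 with total scaling. None of the 9 was called higher in either line, against 12.5% of all miRNAs in shNC and 16.9% in shPerk cells. The median of the 9 was -0.41 in shNC and -1.03 in shPerk cells, beside medians of -0.04 and -0.05 over all miRNAs. Total scaling moved the median of all miRNAs to -0.30 in shNC and -0.40 in shPerk cells, so these differences are given relative to TMM scaling. Over the same 3 days the summed muscle markers rose from 19165 to 88479.9 CPM in shNC and from 3839 to 24312 CPM in shPerk cells.

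The opposite arms, which are cut from the same hairpins but are mostly discarded, gave another reading of each hairpin. In miR-17-92, miR-17-3p had 577, 221, 347 and 82 reads in shNC day 0, shPerk day 0, shNC day 3 and shPerk day 3, and miR-18a-3p had 567, 241, 255 and 63 reads. miR-92a-1-5p had 451, 191, 180 and 79 reads. All 3 were lower in shPerk cells at both days. miR-20a-3p, with 101, 40, 42 and 19 reads, and miR-19b-1-5p, with 35, 14, 15 and 6 reads, had the same order but wide intervals, and miR-19a-5p had 0 to 2 reads and was not compared. At day 0 the 5 opposite arms compared lay between -0.89 and -0.74, which is a narrower range than that of their members. None was called, where 20.3% of all miRNAs were called lower. At day 3 they lay further apart, between -1.40 and -0.46. Of the 5, 2 were called lower, miR-17-3p at -1.40 and miR-18a-3p at -1.34, where 23% of all miRNAs were.

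miR-92a set its arms apart. At day 0 miR-92a-3p was at -0.07 while miR-92a-1-5p, the arm specific to the miR-17-92 locus, was at -0.74 (interval -0.99 to -0.50), and the reads of the former per read of the latter went from 152 (139 to 167) in shNC to 243 (211 to 282) in shPerk cells. At day 3 this ratio was 181 (156 to 211) and 135 (108 to 170). miR-92a-2-5p, the arm specific to the X chromosome, had 0 reads in all 4 libraries. miR-18a also shifted between arms: miR-18a-5p per miR-18a-3p read was 4.41 (4.02 to 4.83) in shNC and 2.77 (2.39 to 3.22) in shPerk cells at day 0, and 4.22 (3.67 to 4.85) and 2.48 (1.84 to 3.37) at day 3. For miR-17 the ratio was 46.1, 44.0, 46.5 and 36.1 in the 4 libraries, with overlapping intervals.

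In miR-106b-25 the 3p arm of miR-106b was the more abundant in all 8 libraries, with 5000, 3517, 3544 and 1719 reads in the 4 hairpin libraries. Its log2 fold change in shPerk cells was -0.01 at day 0 and -0.36 at day 3. miR-25-5p had 752, 731, 402 and 131 reads, with log2 fold changes of 0.46 (interval 0.31 to 0.60) at day 0 and -0.94 (-1.23 to -0.65) at day 3, while its member miR-25-3p stayed at -0.04 and -0.06. The reads of miR-25-3p per read of miR-25-5p were 42.9 and 30.4 at day 0 and 54.4 and 99.8 at day 3. miR-93-3p had 173, 176, 130 and 59 reads and was at 0.52 and -0.46. Hence 2 of the 3 opposite arms of this cluster were above 0 at day 0 and all 3 were below 0 at day 3, none past the limit. Of all miRNAs, 52% were below 0 at day 0, 20.3% were called lower and 15.6% higher. The same shares at day 3 were 49.7%, 23% and 21.9%.

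**Figure D3:**
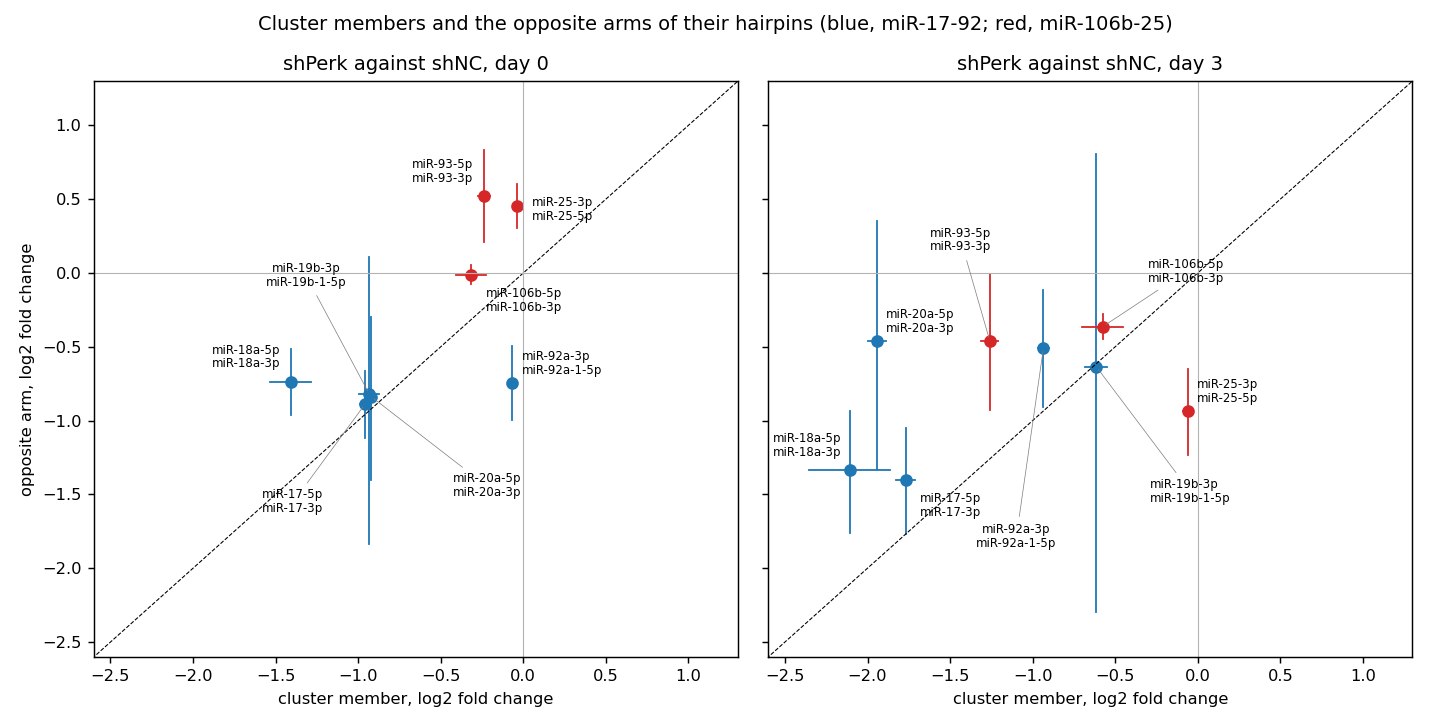
Log2 fold change of each member (x axis) and of the opposite arm of its hairpin (y axis) in shPerk against shNC cells at day 0 (left) and day 3 (right), with miR-17-92 in blue, miR-106b-25 in red and 95% counting intervals as bars. The dashed line marks equal change. At day 0 miR-92a-3p sits at -0.07 with its opposite arm at -0.74, and at day 3 miR-25-3p sits at -0.06 with its opposite arm at -0.94.

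ATF4 against vector asked whether the transcription factor downstream of PERK moves the same miRNAs, in cells kept in growth medium. Here 1 of 9 members was called lower, miR-92a-3p, from 22082 to 10087 RPM (log2 fold change -1.07), where 8.93% of 605 miRNAs were called lower, and none was called higher, where 14.5% were. In all, 6 of 9 were below 0, beside 50.7% of all miRNAs. miR-17-5p was at -0.67, miR-20a-5p at -0.57 and miR-18a-5p at -0.36, while miR-19a-3p was at 0.73 and miR-19b-3p at 0.03. The miR-106b-25 members were near 0: miR-25-3p was at -0.19, miR-93-5p at -0.15 and miR-106b-5p at 0.02. miR-19b-3p and miR-106b-5p turned below 0 with total and with upper-quartile scaling. The median of the 9 was -0.19, beside 0.00 over all miRNAs.

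The opposite arms of miR-17-92 were lower still in ATF4 cells. 3 of the 5 listed were called lower, where 8.93% of 605 miRNAs were. miR-19b-1-5p went from 14.1 to 3.37 RPM (log2 fold change -2.0), miR-92a-1-5p from 149 to 61.7 RPM (-1.21) and miR-18a-3p from 144.5 to 61.4 RPM (-1.17). miR-17-3p was at -0.97 and miR-20a-3p at -0.59. The opposite arms of miR-106b-25 were at -0.14 for miR-106b-3p, -0.37 for miR-93-3p and -0.65 for miR-25-5p, none called. The miR-17-92 sum was 1.89-fold lower and the miR-106b-25 sum 1.12-fold lower in ATF4 cells. The miR-17-92 sum was thus lower with ATF4 overexpression and with the hairpin against Perk, in libraries that share no control, but the members differed in part. With ATF4, miR-92a-3p was at -1.07, miR-19a-3p at 0.73 and miR-19b-3p at 0.03. In C2C12 shPerk cells the same members were at -0.07, -1.32 and -0.93 at day 0, and at -0.93, -0.84 and -0.62 at day 3. miR-17-5p, miR-18a-5p and miR-20a-5p were lower in each of these comparisons. The summed muscle markers were at 2467 RPM in vector and 3789.7 RPM in ATF4 cells. Of the brain and blood markers, miR-9-5p was called higher, from 75.99 to 236 RPM (log2 fold change 1.70), and miR-142a-3p lower, from 7.66 to 2.14 RPM (-1.78), while miR-451a, at 56.3 and 42.9 RPM, was not called. Their part in the result was not tested.

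In P19 cells no member was called in shPerk against shNC, where 17.7% of 696 miRNAs were called lower and 17.7% higher, and 5 of 9 were below 0, beside 51.7% of all miRNAs. miR-92a-3p was at -0.79, miR-18a-5p and miR-17-5p at -0.42, miR-106b-5p at -0.27 and miR-19b-3p at -0.24. miR-19a-3p was at 0.59, miR-93-5p at 0.17, miR-25-3p at 0.10 and miR-20a-5p at 0.00. These signs depend on scaling: as deposited, relative to all miRNA reads, all 9 members were lower and miR-17-5p, miR-18a-5p and miR-92a-3p passed the limit, where 35.5% of all miRNAs were called lower and the median of all miRNAs moved from -0.04 to -0.65. The 8 miR-290 and miR-302 marker arms summed to 210287 RPM in shNC and 444465 RPM in shPerk cells. Beside them, miR-124-3p was at 198 and 29.6 RPM and miR-9-5p at 3359 and 1429 RPM, and their part in the difference was not tested.

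A wider limit of 1.5-fold showed how near the members lay to the 2-fold limit. It was passed downwards by 5 of 9 members at day 0, where 33.7% of all miRNAs passed it downwards, and by 7 of 9 at day 3, where 30.6% did. In differentiation it was passed by 3 of 9 in shNC cells (28.5% of all miRNAs) and by 6 of 9 in shPerk cells (30%). With ATF4 it was passed downwards by 2 of 9 (22.1%) and in P19 by 1 of 9 (27.3%), while miR-19a-3p passed it upwards in both.

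A ratio of the cluster sums within 1 library does not depend on scaling. Reads of miR-106b-25 per read of miR-17-92 were 0.367 (0.363 to 0.371) in shNC and 0.464 (0.458 to 0.470) in shPerk cells at day 0, and 0.492 (0.486 to 0.498) and 0.877 (0.859 to 0.895) at day 3. They were 0.222 in vector and 0.374 in ATF4 cells, and 0.351 and 0.568 in P19 shNC and shPerk cells. The ratio was higher in the perturbed library of all 4 pairs, by 1.27-fold at day 0, 1.78-fold at day 3, 1.68-fold with ATF4 and 1.62-fold in P19. A rise was not particular to these pairs. From day 0 to day 3 the ratio rose by 1.34-fold in shNC and by 1.89-fold in shPerk cells. The control libraries of C2C12 also differed, with 0.222 in vector and 0.367 in shNC cells at day 0. Leaving out miR-19b-3p and miR-92a-3p, which the X chromosome can also make, the ratio was 0.820 and 1.49 at day 0, 0.972 and 2.51 at day 3, 0.797 and 1.09 in vector and ATF4, and 1.55 and 1.88 in P19. The balance moved towards miR-106b-25 in each pair either way, and no pair had a replicate.

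**Figure D4:**
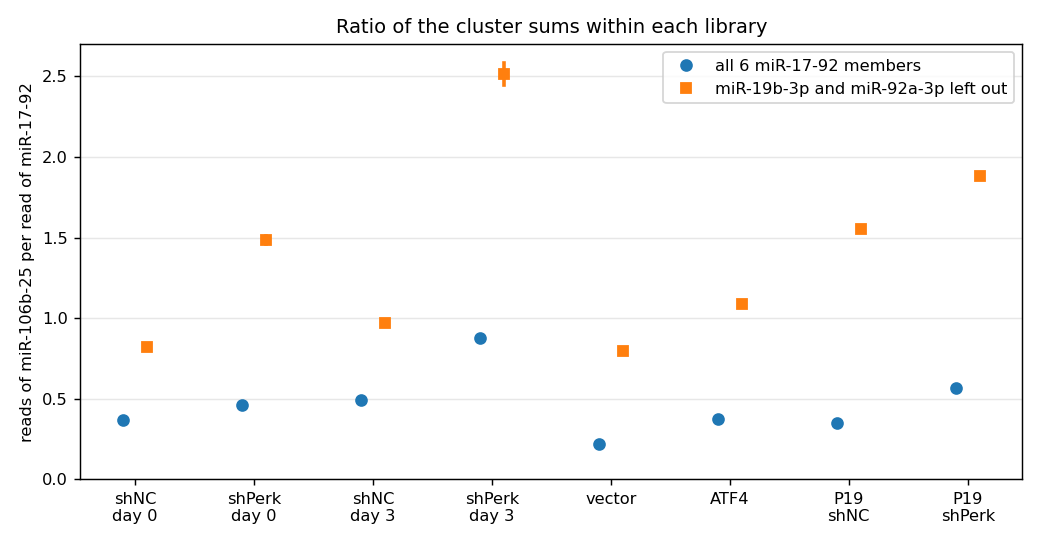
Summed reads of the 3 miR-106b-25 members per read of miR-17-92 (y axis) in each library (x axis), with all 6 miR-17-92 members (circles) or without miR-19b-3p and miR-92a-3p (squares). Bars are 95% counting intervals, given for the count libraries only. In each pair the right-hand library is higher, most of all at day 3, from 0.492 to 0.877.

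The paralogous miR-106a-363 cluster separated the cell lines. In the 4 C2C12 hairpin libraries miR-106a-5p had 25 to 164 reads, miR-20b-5p 12 to 140 reads and miR-18b-5p 2 to 18 reads, while miR-363-3p had 0 to 2 reads and the other 6 arms had 0. The reads of miR-106a-5p and miR-20b-5p in C2C12 are uncertain beside those of miR-17-5p and miR-20a-5p, since the sequences are near-identical and how reads with more than 1 match were counted is not given in the sources used here. In P19 all 10 arms were listed, with miR-20b-5p at 22811 and 13343 RPM, miR-363-3p at 13889 and 10863 RPM and miR-106a-5p at 12444 and 5874 RPM in shNC and shPerk cells. miR-92a-2-5p was at 263 and 116 RPM there, beside miR-92a-1-5p at 149.7 and 127 RPM. The X-linked cluster summed to 5.25% and 3.18% of P19 reads in shNC and shPerk cells, and to at most 0.00323% in C2C12. The miR-17-92 sum was 5.81% and 2.53% in P19, but it holds all reads of miR-19b-3p and miR-92a-3p, which both loci can make. Without these 2 members it was 1.31% and 0.762%, below the X-linked cluster. None of the X-linked arms passed the limit between P19 shPerk and shNC cells with TMM scaling. Of all miRNAs, 17.7% were called lower and 17.7% higher there. As deposited, 5 of 10, miR-106a-5p, miR-106a-3p, miR-18b-3p, miR-92a-2-5p and miR-363-5p, were called lower, where 35.5% of all miRNAs were. With upper-quartile factors 1, miR-18b-3p, was called lower, where 20% of all miRNAs were.

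**Figure D5:**
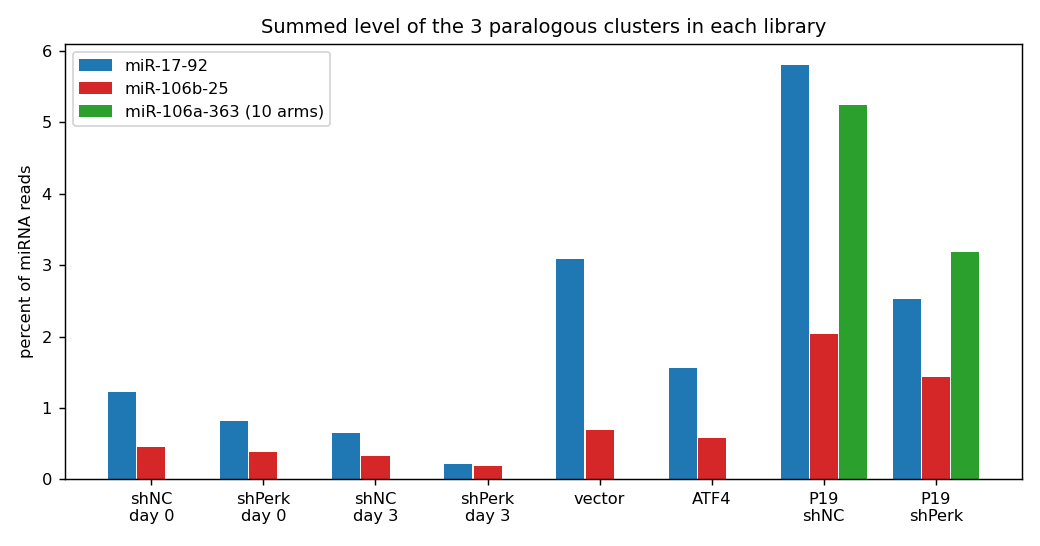
Share of all miRNA reads (y axis, percent) taken by the 6 members of miR-17-92, the 3 of miR-106b-25 and the 10 arms of miR-106a-363 in each library (x axis). Reads of miR-19b-3p and miR-92a-3p, which the X chromosome can also make, are all counted in miR-17-92. The X-linked cluster is visible only in P19, at 5.25% and 3.18%, and miR-17-92 is smallest in C2C12 shPerk cells at day 3, at 0.215%.

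The 4 members with the miR-17 seed were set against every miRNA that holds AAGUGC, the letters at bases 3 to 8 of that seed, within its own bases 2 to 8. Of 1679 names matched to a RefSeq sequence, 16 held it. In C2C12 the 4 members made up 98.8% and 98.4% of that pool in shNC and shPerk cells at day 0, 99.1% and 97.4% at day 3, and 99.0% and 98.9% in vector and ATF4. The pool itself was 6758, 3719.7 and 4547 CPM in the first 3 of these libraries and 1205 CPM in shPerk cells at day 3. In P19 they were 10.1% and 3.54%, where miR-302b-3p led with 76522 and 180818 RPM. The pool rose in P19 from 211029 RPM in shNC to 381114 RPM in shPerk cells while the 4 members went from 21295 to 13473 RPM. In the miR-25/92 family, the relatives outside the clusters were miR-32-5p, at 360, 215, 205 and 144 CPM in the C2C12 hairpin libraries, and miR-92b-3p, at 13.3, 23.4, 6.75 and 4.77 CPM.

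The miRNAs most like each cluster sum were those with the smallest root mean square difference in log2 fold change over 5 comparisons, among 211 miRNAs at 10 CPM or RPM or more in all 8 libraries. For miR-17-92 they were miR-374b-5p and miR-374c-5p (0.36 each, near-identical sequences that may share reads), miR-186-5p (0.38), miR-296-3p (0.38) and miR-421-3p (0.40), beside a median of 1.20 over the 211. For miR-106b-25 they were miR-674-5p (0.18), miR-700-3p (0.22), miR-15b-5p (0.23), miR-99b-5p (0.30) and miR-16-5p (0.31), beside a median of 0.80. The 5 comparisons share the shNC libraries in part, so likeness is a description.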

How the data were processed

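Small RNA libraries were made by a company, with linkers ligated to both ends, reverse transcription, PCR and gel selection, and reads were annotated with bowtie on mm10 (GRCm38). Which bowtie version and miRNA release were used, and how reads with more than 1 match were counted, is not given in the sources used here. The authors deposited raw read counts per mature miRNA for the 4 hairpin libraries of C2C12. The shNC columns occur in more than 1 table and were identical. For the ATF4 and P19 pairs the authors deposited RPM values, with values under 1 RPM listed at 0. The steps of low RPM values correspond to about 10.6, 12.2, 7.92 and 4.46 reads per RPM for vector, ATF4, P19 shNC and P19 shPerk, and 95.3% to 98.9% of values under 40 RPM were whole reads within rounding. No interval was built on these steps. The tables also hold the authors' own log2 fold changes, p-values and q-values for each pair, which were not used. The 9 members were matched by name, 1679 of 1978 names matched a RefSeq mature sequence, and positions are from GENCODE vM21.

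Pairs of libraries were compared with edgeR's TMM factors over miRNAs at 1 CPM or RPM or more in at least 1 library, on counts with edgeR's default prior count and on RPM values with 0 set to 1 RPM. With 1 library per condition, edgeR's quasi-likelihood test and DESeq2 could not be fitted, so a miRNA was called past 2-fold and no p-value is given. Counting intervals are exact Clopper-Pearson intervals at 95%, except those of the shifts between days, which use a normal approximation on the read counts. The code was run on simulated libraries. The simulated counts had counting error but no biological spread, and the simulated RPM values had neither. Changed miRNAs were at 10 CPM or RPM or more, with as many set up as down. All of the 4-fold changed miRNAs were recovered past 2-fold in each of the 6 comparisons, with 0 unchanged miRNAs at 10 CPM or RPM called. For the RPM pairs this followed from the input, so it checks the code only. The alternatives were scaling by totals, by DESeq2 size factors and by upper quartiles, other filters, a prior count of 2, pseudocounts of 1 and 5 RPM and a 1.5-fold limit. The miRNAs named are the members, their opposite arms, the miR-106a-363 cluster, seed relatives, cell markers and the 5 miRNAs most like each cluster. The members and lists were chosen with earlier results of these data known. Fold changes were computed in R (version 4.3.3) with the packages edgeR (4.0.16) and DESeq2 (1.42.0). Intervals came from scipy 1.17.1, tables from pandas 2.3.3 on numpy 2.4.6, and plots from matplotlib 3.10.9, all under Python 3.11.15.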

Additional observations from a re-analysis of the deposited data

Results flagged for a closer look

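Several members had values on opposite sides of 0 under the same contrast in different groups, each group being 1 library per condition, and none of these differences was tested. Between day 0 and day 3, miR-93-5p had a log2 fold change of 0.10 in shNC and -1.03 in shPerk cells, and miR-19b-3p -0.18 in shNC and 0.026 in shPerk cells, the last with a counting interval from -0.05 to 0.10 that holds 0. With total scaling, all 4 of these values were below 0.

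Between shPerk and shNC cells, 4 members were below 0 in C2C12 at both days and above 0 in P19. miR-19a-3p was at -1.32 and -0.84 in C2C12 at day 0 and day 3 and at 0.59 in P19. miR-20a-5p was at -0.92 and -1.94, and at 0.00 in P19 (0.0017 before rounding, which gives no direction). miR-93-5p was at -0.24 and -1.26, and at 0.17 in P19. miR-25-3p was at -0.04 and -0.06, and at 0.10 in P19. The miR-106b-25 sum was at -0.11 and -0.44 in C2C12 and at 0.10 in P19. With RPM as deposited, all 9 members were below 0 in P19 and none of these signs differed between the lines.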

How the results depend on the processing

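No paired analysis was possible because each condition was 1 library, and leaving out a library was not possible for the same reason. The signs of the cluster sums held in all 4 C2C12 hairpin comparisons and with ATF4 under every scaling and filter. In the order shPerk day 0, shPerk day 3, differentiation of shNC and differentiation of shPerk cells, the miR-17-92 sum was at -0.58, -1.61, -0.90 and -1.93 with total scaling and the miR-106b-25 sum at -0.25, -0.78, -0.48 and -1.01. With a filter of 10 CPM in both libraries they were at -0.63, -1.40, -0.78 and -1.64, and at -0.29, -0.57, -0.36 and -0.73. With no filter they were at -0.43, -1.34, -0.55 and -1.48, and at -0.087, -0.51, -0.12 and -0.56. Upper-quartile factors gave -0.47, -1.39, -0.75 and -1.68 for miR-17-92, and -0.55, -0.33 and -0.77 for miR-106b-25 in the last 3 comparisons. DESeq2 factors gave -0.40, -0.60 and -1.52 for miR-17-92 and -0.057, -0.17 and -0.61 for miR-106b-25 in all but shPerk day 3. For ATF4, the miR-17-92 and miR-106b-25 sums were at -0.98 and -0.23 as deposited, -0.93 and -0.17 with median-of-ratios factors, -1.29 and -0.54 with upper-quartile factors and -1.03 and -0.27 with a filter of 10 RPM in both libraries. For P19 they were at -1.20 and -0.50 as deposited, -0.55 and 0.15 with median-of-ratios factors, -0.73 and -0.037 with upper-quartile factors and -0.54 and 0.16 with the filter, so the sign of miR-106b-25 in P19 turned with the scaling. The number of members called at the 2-fold limit, all lower, is given with the share of all miRNAs called lower in brackets. At day 0 it was 5 with total scaling (23.8%) and with the 10 CPM filter (17.2%), beside 2 with TMM (20.3%). In differentiation of shNC cells it was 2 with total scaling (23.6%), upper-quartile factors (19.6%) and the 10 CPM filter (8.95%). There it was 0 with DESeq2 factors (15.5%) or no filter (26.1%), beside 1 with TMM (16.5%). With upper-quartile factors it was 2 for ATF4 (20.5%), and as deposited it was 3 for P19 (35.5%). With a 1.5-fold limit in either direction it was 5 at day 0, 7 at day 3, 3 in differentiation of shNC cells, 3 for ATF4 and 2 for P19. The ATF4 and P19 counts each include miR-19a-3p, which was higher, and the other members counted were lower. The share of all miRNAs past that limit in either direction was 47.6% to 62.0% over the 6 comparisons. Without miR-92a-3p and miR-19b-3p, the ratio of miR-106b-25 to miR-17-92 was 0.820, 1.49, 0.972 and 2.51 in shNC day 0, shPerk day 0, shNC day 3 and shPerk day 3, 0.797 and 1.09 in vector and ATF4 and 1.55 and 1.88 in P19. The values change with the scaling factors and the miRNAs that enter them. Most recomputed values moved. Of the main values, such as cluster sums and counts of members called, 75 moved and 29 stayed within their counting interval or within 1.5 times the count. Of the rest, such as fold changes of single members, 204 moved and 128 stayed. The count of members called in shPerk cells at day 3 is held as staying, though it was 4 with TMM and 6 with total scaling. The miRNAs most like each cluster were the same 5 with total scaling. The vector, ATF4 and P19 values carry no counting interval.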

Other observations

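A pattern at the 3′ end of the members was noticed after their values were seen and has no test. The members that end in UAG are miR-17-5p, miR-18a-5p, miR-20a-5p and miR-93-5p, from both clusters. With TMM scaling these 4 were the 4 called lower in shPerk cells at day 3, between -2.10 and -1.26, while the 5 that do not end in UAG lay between -0.93 and -0.06. The split by call depended on the setting. miR-92a-3p, which ends in CUG, was also called lower at day 3 with the 10 CPM filter, upper-quartile factors, no filter or total scaling, and miR-19a-3p with total scaling. The 4 that end in UAG were called lower in differentiation of shPerk cells too, with 1 of the other 5, but miR-93-5p lost its call there with DESeq2 factors or without a filter, leaving 3 of the 4. The other comparisons held no such split: 1 of 4 and 1 of 5 were called lower at day 0, 1 of 4 and 0 of 5 in differentiation of shNC cells, 0 of 4 and 1 of 5 with ATF4, and 0 of 4 and 0 of 5 in P19. Of the 10 other miRNAs ending in UAG that were compared at day 3, 3 were called lower, 30% beside 22.3% of the 449 that end otherwise, with medians of 0.06 and -0.04. Those called include miR-17-3p (-1.40), the opposite arm of miR-17-5p, and miR-20b-5p (-2.25) of the X-linked cluster. The 10 are therefore not a set independent of the members.

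The vector library and the shNC library at day 0, both C2C12 cells that had not been put in differentiation medium, held the members in different proportions. miR-19a-3p was at 17.01 RPM in vector and 242 CPM in shNC cells, miR-19b-3p at 203 and 714, and miR-32-5p, a seed relative of miR-92a-3p, at 16.2 and 360. miR-92a-3p was at 22082 RPM in vector and 6063 CPM in shNC cells, and miR-17-5p at 4670.4 and 2351. miR-92a-3p made up 71.5% of the miR-17-92 reads in vector and 49.4% in shNC cells. These tables were made and scaled separately.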
